A study of Homo sapiens with 2 samples.

Results

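A loop anchor is 1 end of a chromatin loop, and some positions of the genome anchor more than 1 loop. The anchors of the 1432 loops up to 2 Mb called in HEK293T cells were pooled, 2864 in all, and those that overlapped or touched on a chromosome were merged into 2567 sites. Of these sites, 274 were used by 2 or more loops and are called shared sites below, and 2293 were used by 1 loop. Shared sites held 571 of the 2864 anchors (19.9%), and 495 of the 1432 loops (34.6%) had a shared site at 1 or both of their ends. They were chosen from the loop calls themselves, so their number, the side of their partners and the nesting of their loops are descriptions and were not tested. The longest loop kept was 1950 kb, the longest at a shared site 1890 kb and the shortest left out by the length limit 2050 kb. At the limit of merging, 101 neighbouring pairs of sites lay up to 20 kb apart and stayed separate.

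The data are in situ Hi-C from a study of CTCF sites and NuRD, a chromatin remodelling complex. The method cuts crosslinked chromatin, joins fragments that lie close together and sequences the junctions. HEK293T is a human embryonic kidney line transformed with adenovirus DNA and carrying the SV40 large T antigen, and its abnormal chromosome number means that copy number differs between regions. The series held 1 group of untreated cells, crosslinked with 1% formaldehyde and cut with MboI, in 2 libraries labelled as replicates, with no perturbed or control group. The 3 deposited tables describe both libraries together, so no value has a replicate error. Poisson intervals of enrichments cover counting error of contacts only. Intervals of shares and medians reflect only the number of sites, pairs or loops counted. The loops had 14 to 349 observed contacts per pixel (median 76), and those at shared sites had 16 to 214 (median 77). Positions are in hg19, counted from 1.

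As background, many loops of mammalian cells are held by cohesin, a ring complex thought to enlarge a loop of chromatin until it meets CTCF, a DNA-binding insulator protein. CTCF motifs have a direction, and a pair at the bases of a loop usually point towards each other. At boundaries between domains, motifs pointing away from each other are often found side by side. CTCF binding, motifs and sequence at these sites were not analysed here, and no gene was placed on these coordinates.

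Sharing was mostly between 2 loops. Sites of 2 loops numbered 251 and sites of 3 loops 23, and none of the 274 had more. Every loop at a shared site led to a separate partner site. The loops of 112 shared sites used 1 and the same pixel edge, and those of the other 162 used overlapping or neighbouring pixels. Shared sites were 10 kb wide in 163 cases, 20 kb in 83, 15 kb in 25, 30 kb in 2 and 5 kb in 1.

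Partners lay upstream only (at lower coordinates) at 98 sites (35.8%, 95% Wilson interval 30.3 to 41.6%), downstream only at 102 (37.2%, 31.7 to 43.1%) and on both sides at 74 (27.0%, 22.1 to 32.6%). With anchors up to 20 kb apart merged, the both-sided share was 43.0% of 356 sites (37.9 to 48.2%). The intervals of the 2 one-sided classes overlapped. Among the 23 sites of 3 loops, 17 had partners on both sides and 6 had all partners on 1 side. The summed contacts of the loops at a site had a median of 153 (range 37 to 311) for upstream only, 147 (74 to 327) for downstream only and 185 (105 to 358) for both sides. A site of 3 loops adds 1 more loop to this sum, and 17 of the 74 both-sided sites had 3.

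Chromosomes 1 and 6 held the most shared sites, 34 of 291 sites (11.7%, 8.48 to 15.9%) and 33 of 226 (14.6%, 10.6 to 19.8%). All 22 chromosomes with a loop up to 2 Mb, which leave out chromosome 22, had at least 2. The share ranged up to 20.0% on chromosome 16, where it rests on 6 of 30 sites (9.51 to 37.3%), and 17.1% on chromosome 9 (19 of 111, 11.2 to 25.2%). It was lowest on chromosomes 19 (2 of 43, 4.65%) and 3 (10 of 172, 5.81%, 3.19 to 10.4%). Most of these intervals overlap, so few chromosomes can be ordered at this number of sites.

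Of the 23 sites with 3 loops, the 8 with the highest summed contacts are described here, and 7 of the 8 had partners on both sides. The site with the highest summed contacts (358) lay at chr6:32380001-32400000. One loop led upstream to chr6:32210001-32220000, 170 kb away, with 114 contacts, and 2 led downstream, 370 kb to chr6:32750001-32760000 with 134 and 270 kb to chr6:32660001-32670000 with 110. Their enrichments, the observed contacts divided by those expected from the donut-shaped surroundings of the pixel, were 2.40 (95% Poisson interval 1.98 to 2.88), 2.42 (2.03 to 2.87) and 2.32 (1.91 to 2.80), in that order. The 3 intervals overlap. A domain start lay 5 kb and a right domain end 10 kb from this site.

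At chr19:46570001-46590000 the 3 loops were short. The upstream partner lay 50 kb away (111 contacts, 2.45-fold) and the downstream partners 180 kb (106 contacts, 2.54-fold) and 110 kb away (113 contacts, 2.33-fold). No domain end was listed within 20 kb of this site, the nearest start being 45 kb and the nearest right end 180 kb away. On chromosome X the site at chrX:73340001-73360000 had 2 upstream partners and 1 downstream. The farther upstream loop, 280 kb long, was enriched 3.10-fold (2.56 to 3.72) on 116 contacts, and the nearer, 100 kb long, 2.03-fold (1.67 to 2.45) on 108. Those 2 intervals do not overlap. The downstream loop of 210 kb had 105 contacts and was enriched 2.34-fold (1.91 to 2.83).

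The site at chr10:28950001-28960000 was 1 of the 6 with 3 partners on 1 side, and all its loops started from 1 pixel edge. The partners lay downstream at 320, 460 and 640 kb. Contacts were 130, 100 and 97 and enrichments 2.14 (1.79 to 2.55), 2.24 (1.82 to 2.72) and 2.39 (1.94 to 2.91), so that contacts were fewer with distance while the intervals of the enrichments overlap. A single domain spanned the 320 kb loop, and none spanned the longer ones. A similar fan at chr10:22280001-22300000 reached partners 310, 990 and 1070 kb downstream with 110, 68 and 68 contacts (2.29-fold, 2.59-fold and 2.86-fold), and no domain spanned any of the 3.

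A further 3 sites held both a domain start and a right domain end. From chr4:89130001-89150000, loops led 360 and 180 kb upstream (65 contacts at 2.91-fold and 129 at 2.71-fold) and 290 kb downstream (117 contacts, 3.17-fold). From chr13:77040001-77060000 they led 780 and 595 kb upstream (95 contacts at 2.36-fold and, in a 5 kb pixel, 98 at 3.66-fold) and 420 kb downstream (108 contacts, 2.24-fold). From chr5:58670001-58690000 they led 190 kb upstream (101 contacts, 2.87-fold) and 410 and 280 kb downstream (96 contacts at 3.80-fold and 87 at 2.46-fold). The intervals of these last 2 enrichments, 3.08 to 4.64 and 1.97 to 3.03, do not overlap, and a domain spanned only the longer loop. The last of the 8, chr1:23420001-23430000, had loops of 120 kb upstream (126 contacts, 2.18-fold) and 180 and 90 kb downstream (75 contacts at 2.25-fold and, in a 5 kb pixel, 68 at 2.80-fold).

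Among sites with upstream partners only, the highest summed contacts (311) were at chr4:184170001-184190000. Its farther loop, 330 kb long, had 97 contacts at 2.62-fold, and its nearer loop, 180 kb long, had 214 at 2.92-fold. The 3 next were chr10:86290001-86300000 (136 contacts at 270 kb and 111 at 160 kb), chr6:11490001-11500000 (117 at 350 kb and 125 at 320 kb) and chr10:97120001-97130000 (52 at 230 kb and 175 at 120 kb). The 52 contacts of the last were counted in a 5 kb pixel and the 175 in a 10 kb pixel, and contacts in pixels of unlike size cannot be set against each other. Among sites with downstream partners only, the 2 fans of chromosome 10 were joined by chr18:29130001-29140000 (138 contacts at 270 kb and 165 at 160 kb) and chr5:36410001-36420000. At this last site the 280 kb loop was enriched 3.05-fold (2.52 to 3.65) on 117 contacts and the 90 kb loop 2.12-fold (1.80 to 2.49) on 152, and the intervals do not overlap.

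Anchors within sites that faced both ways followed 1 order at most sites. At each of the 74 sites, the centre of the anchors of downstream loops was set against that of upstream loops. The downstream loops started farther downstream at 61 sites (82.4%, 72.2 to 89.4%), at the same place at 12 and farther upstream at 1, by 1.25 kb. At that last site, chr1:23420001-23430000, all anchors began at 1 position, and the offset came from averaging pixels of 5 and 10 kb. Pixel size also enters small positive offsets, such as the 2.5 kb at chr3:141170001-141180000, where a 10 kb pixel was set against a 5 kb one. The median offset was 10 kb (quartiles 5 and 10 kb), 1 pixel of the coarser map. By the deposited loop centroids, which average the merged pixels, the offset was positive at 71 sites, 0 at 3 and negative at none, with a median of 10 kb and a highest value of 23.3 kb. The reverse order would need the 2 loops to overlap within the site. Sites of 1 loop each that lay up to 20 kb apart, just too far to be merged, showed a like order. Neighbouring sites joined to each other by a loop, which have the reverse order by construction, were left out. Of the 85 neighbouring pairs that remained, 64 (75.3%, 65.2 to 83.2%) had an upstream-facing site followed by a downstream-facing one. The reverse was seen in 1, while 7 both faced upstream and 13 both faced downstream. At gaps over 20 and up to 50 kb 41 of 44 had the first order and none the reverse, which allows a share of up to 6.82%. At gaps over 50 and up to 100 kb these were 44 of 85 and none, which allows up to 3.53%. These shares hold for unjoined pairs only. How much of the absence of the reverse order follows from leaving joined pairs out was not tested.

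**Figure D1:**
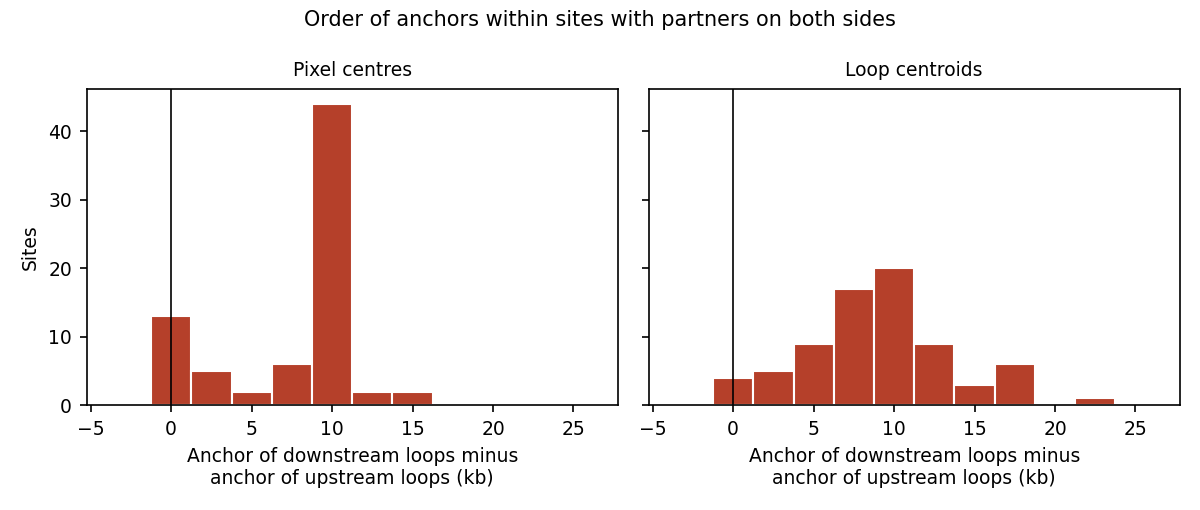
Number of sites (vertical axis) by the offset in kb between the anchors of downstream loops and those of upstream loops (horizontal axis), for the 74 sites with partners on both sides, by pixel centres (left) and loop centroids (right). The bulk of the sites lies to the right of 0, with a median of 10 kb in both panels.

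Domain ends lay at most shared sites, and which end it was differed with the side of the partners. A domain start or right end was listed within 20 kb of 249 of 274 shared sites (90.9%, 86.9 to 93.7%) and of 1776 of 2293 single-loop sites (77.5%, 75.7 to 79.1%), where the share over all 2567 sites was 78.9%. Of all 10 kb windows of the scored genome, 12.7% had one. Both calls rest on 1 contact map, so the nearness of domain ends is not independent of the choice of sites. Shared sites were wider than single-loop sites, and the part of width in this difference was not tested. Of the 164 shared sites no wider than 10 kb, a subset chosen after seeing the data, 147 (89.6%, 84.0 to 93.4%) had a domain end.

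At sites with downstream partners only, a domain start lay within 20 kb of 88 of 102 shared sites (86.3%, 78.3 to 91.6%) and of 823 of 1142 single-loop sites (72.1%, 69.4 to 74.6%). The share over all sites was 49.3%. A right domain end lay near 28 of those 102 (27.5%, 19.7 to 36.8%) and near 225 of the 1142 (19.7%, 17.5 to 22.1%), against 48.3% of all sites. Sites with upstream partners only mirrored this, with a right end near 85 of 98 shared sites (86.7%, 78.6 to 92.1%) and 841 of 1151 single-loop sites (73.1%, 70.4 to 75.5%). A start lay near 22 of those 98 (22.4%, 15.3 to 31.7%) and near 270 of the 1151 (23.5%, 21.1 to 26.0%). For the end that matches the direction of the loops, the intervals of shared and single-loop sites did not overlap. For the other end they did. No test across samples was possible.

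Of the 74 sites with partners on both sides, 62 (83.8%, 73.8 to 90.5%) had a start and 62 a right end within 20 kb, and 53 (71.6%, 60.5 to 80.6%) had both. At none of the 74 was 1 position both the right end of a domain and the start of another. By contrast both kinds of end lay near 26 of the 102 sites with downstream partners only (25.5%, 18.0 to 34.7%) and 19 of the 98 with upstream partners only (19.4%, 12.8 to 28.3%). A group of 25 shared sites had no domain end within 20 kb, of which 12 faced downstream, 10 upstream and 3 both ways.

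**Figure D2:**
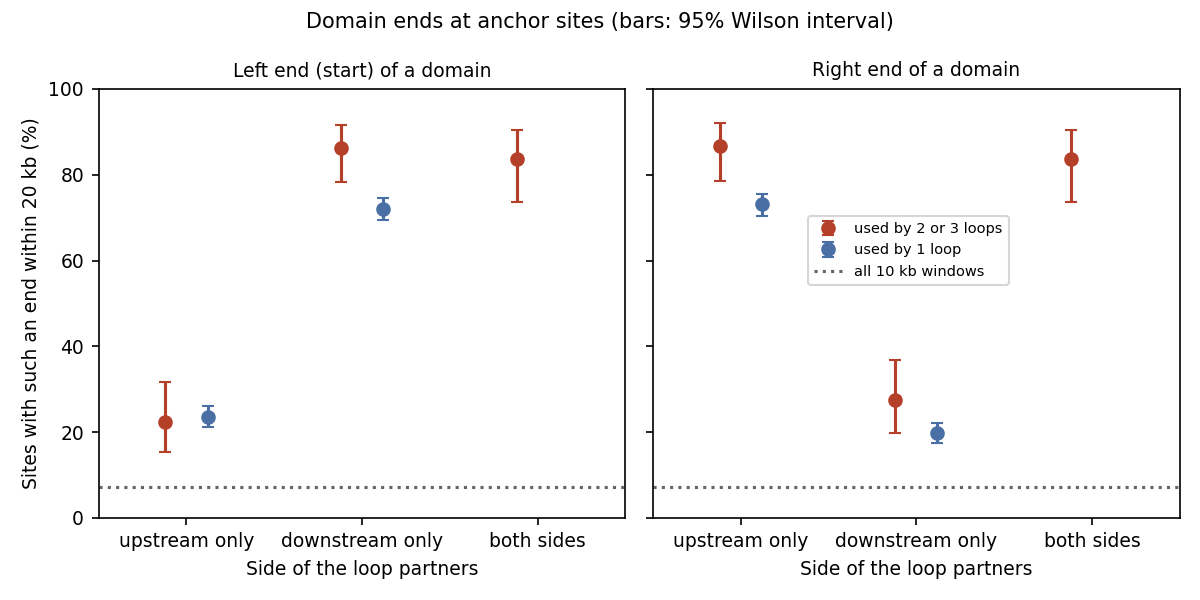
Percentage of anchor sites (vertical axis) with the left end (left panel) or right end (right panel) of a contact domain within 20 kb, by the side of the loop partners, for sites used by 2 or 3 loops (red) and by 1 loop (blue), which has 1 side only. Bars are 95% Wilson intervals and the dotted line is the share of all 10 kb windows. Sites with partners on both sides stand at 83.8% in both panels, while one-sided shared sites stand at 86.3 or 86.7% for the end that matches their loops and at 22.4 or 27.5% for the other.

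Loops at shared sites were longer at the median than other loops. Their median distance was 290 kb (quartiles 180 and 470 kb, n = 495), against 250 kb (145 and 400 kb, n = 937) for loops with no shared site, and 160 of the 495 (32.3%, 28.4 to 36.6%) and 234 of the 937 (25%, 22.3 to 27.8%) were longer than 400 kb. The 76 loops that joined 2 shared sites had a median of 360 kb (190 and 562.5 kb). Where 2 partners lie on 1 side, 1 loop has to reach past the nearer partner. Whether the choice of sites bears on the difference in distance was not tested.

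Enrichment over the donut was higher by a little, at a median of 2.74 (quartiles 2.42 and 3.14) for loops at shared sites and 2.64 (2.35 and 3.08) for loops without one. Within distance classes the order was not kept. The medians were 2.34 (n = 31) and 2.31 (n = 113) up to 100 kb, 2.55 (n = 120) and 2.46 (n = 265) between 100 and 200 kb, and 2.70 (n = 184) and 2.71 (n = 325) between 200 and 400 kb. They were 2.90 (n = 124) and 2.91 (n = 175) between 400 and 800 kb and 3.23 (n = 36) and 3.31 (n = 59) above that. In each class the medians differed by less than the distance between the quartiles, and no test of the difference was run.

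The 571 loop ends at shared sites gave 320 pairs of loops, 229 with partners on the same side and 91 with partners on opposite sides. In same-side pairs the nearer loop is nested in the farther by construction. The farther loop had a median distance of 470 kb (quartiles 320 and 670 kb) and the nearer 220 kb (150 and 330 kb), with a median ratio of 1.97 (quartiles 1.52 and 2.69). The step from the nearer to the farther partner was 190 kb at the median (quartiles 117.5 and 320 kb, lowest 20 kb). Of the steps, 7 (3.06%) were 50 kb or shorter.

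The farther loop had 62 contacts at the median (quartiles 50 and 82) and the nearer 84 (63 and 107), but its enrichment was the higher of the pair in 153 of 229 (66.8%, 60.5 to 72.6%). The median ratio of enrichments, farther over nearer, was 1.10 (quartiles 0.933 and 1.24). The Poisson intervals of the 2 enrichments were apart in 12 pairs, 9 with the farther and 3 with the nearer loop higher. Listed loops have higher enrichments at longer distances throughout the table, as the class medians above show, so the difference cannot be told apart from that of distance. In the 157 pairs whose loops lay in pixels of 1 size, a subset chosen after seeing the data, the farther loop had the higher enrichment in 126 (80.3%, 73.3 to 85.7%) and more contacts in 23 (14.6%, 9.96 to 21%). In opposite-side pairs of unequal distance the longer loop was the more enriched in 56 of 89 (62.9%, 52.5 to 72.2%). By direction, the downstream loop was more enriched in 42 of 91 (46.2%, 36.3 to 56.3%), with a median ratio, downstream over upstream, of 0.979 (quartiles 0.891 and 1.12) and intervals apart in 3 pairs. Their distances were often unequal. The longer loop was 1.81 times the shorter at the median (quartiles 1.38 and 2.48).

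**Figure D3:**
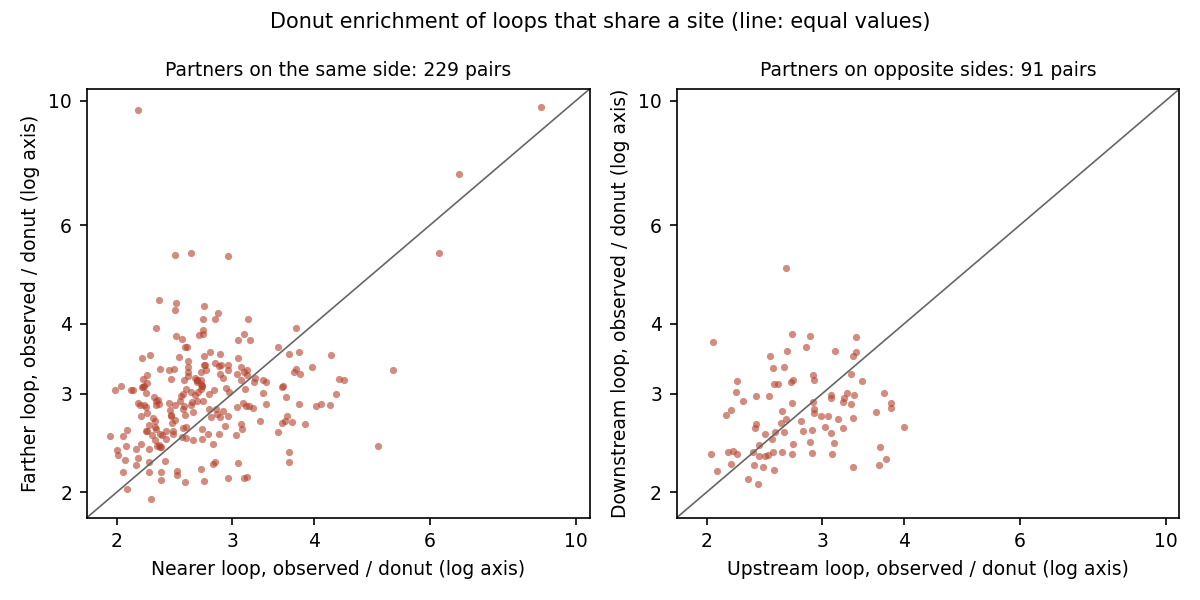
Donut enrichment of the 2 loops of each pair that shares a site, on log axes, for 229 pairs with partners on the same side (left, farther against nearer loop) and 91 with partners on opposite sides (right, downstream against upstream loop). The line marks equal values. In the left panel 153 pairs lie above the line and in the right panel 42 do.

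The 5 pairs with the highest ratio between their enrichments, among loops of at least 20 contacts, each set a 5 kb pixel against a 10 kb one. At chr8:72740001-72750000 the loop 325 kb downstream was enriched 5.31-fold (3.81 to 7.20) on 41 contacts in a 5 kb pixel, and the loop of 150 kb 2.45-fold (1.99 to 2.98) on 100 contacts in a 10 kb pixel. At chr11:94885001-94900000 the farther loop of 600 kb had 83 contacts at 2.41-fold, and the nearer loop of 555 kb was the higher, at 5.00-fold on 25 contacts in a 5 kb pixel. The pairs at chr7:25930001-25940000, chr4:141770001-141785000 and chr1:66150001-66160000 had ratios of 2.06, 1.91 and 1.90. Pixel size moved with the largest differences within a site, and its part in them was not tested.

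Nearer and farther loops differed in whether a contact domain filled them. A loop counted as spanned when 1 domain started within 20 kb of its left site and ended within 20 kb of its right site, as 58.0% of all 1432 loops did. Among same-side pairs, a domain spanned only the nearer loop in 125 of 229 (54.6%, 48.1 to 60.9%), only the farther in 30 (13.1%, 9.33 to 18.1%), both in 24 (10.5%, 7.14 to 15.1%) and neither in 50 (21.8%, 17.0 to 27.6%). Among opposite-side pairs, domains spanned both loops in 36 of 91 (39.6%, 30.1 to 49.8%), only the downstream loop in 25, only the upstream loop in 22 and neither in 8.

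Long loops were spanned less often in any case, so loops were also set side by side within distance classes. Between 400 and 800 kb a domain spanned 14 of 84 farther loops (16.7%, 10.2 to 26.1%), 7 of 22 loops that were only the nearer of a pair (31.8%, 16.4 to 52.7%) and 88 of 175 loops without a shared site (50.3%, 43.0 to 57.6%). Between 200 and 400 kb the counts were 27 of 65 (41.5%, 30.4 to 53.7%), 43 of 74 (58.1%, 46.7 to 68.7%) and 198 of 325 (60.9%, 55.5 to 66.1%). Loops at shared sites found only in opposite-side pairs were spanned in 11 of 18 cases (61.1%, 38.6 to 79.7%) between 400 and 800 kb. Between 200 and 400 kb they were spanned in 29 of 45 (64.4%, 49.8 to 76.8%). Over all distances, 10 loops were the farther of 1 pair and the nearer of another, and these count as farther. The intervals of farther loops and of loops without a shared site were apart in both classes. Above 800 kb they overlapped, at 4 of 29 (13.8%, 5.50 to 30.6%) and 11 of 59 (18.6%, 10.7 to 30.4%). Between 100 and 200 kb nearer loops (70 of 86, 81.4%) and loops without a shared site (210 of 265, 79.2%) had intervals that overlap.

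**Figure D4:**
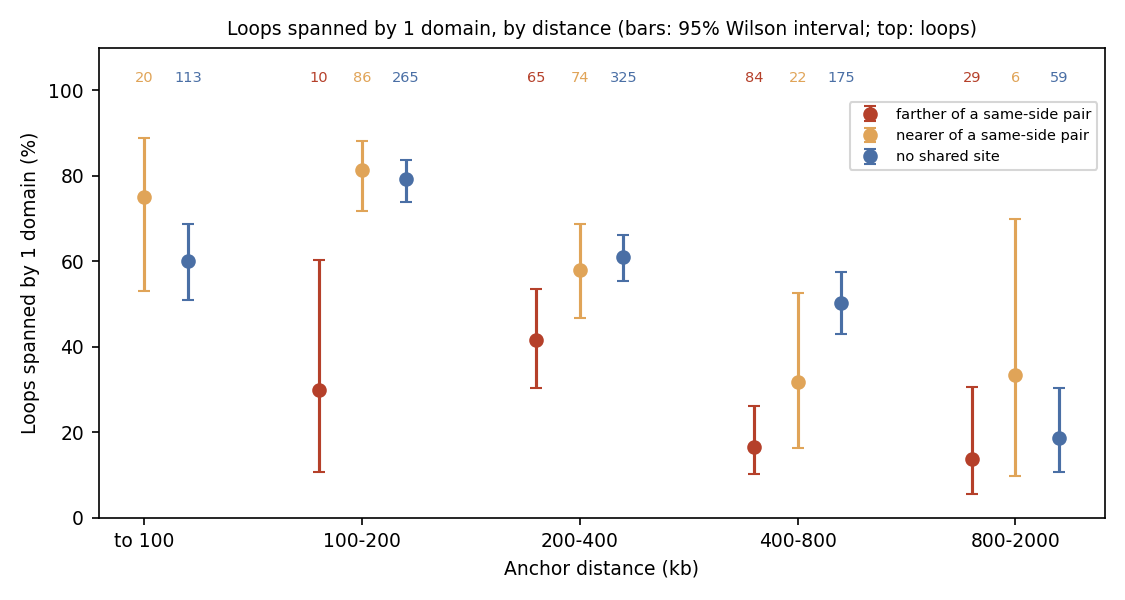
Percentage of loops spanned by 1 contact domain (vertical axis) by anchor distance in kb (horizontal axis), for the farther loop of a same-side pair (red), loops that were only the nearer (yellow) and loops with no shared site (blue). Bars are 95% Wilson intervals, numbers at the top count the loops, and sets under 5 loops are left out. Between 400 and 800 kb farther loops stand at 16.7% and loops with no shared site at 50.3%. Loops found only in opposite-side pairs are not drawn.

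Joined by their loops, the 2567 sites fell into 1148 networks, of which 937 were single loops and 211 held a shared site. Those 211 had 3 sites in 166 cases, 4 in 31, 5 in 13 and 6 in 1, and spanned 510 kb at the median (quartiles 350 and 750 kb, longest 1900 kb). Of the networks of 3 sites, 62 were a site with 2 downstream partners, 61 a site with 2 upstream partners and 35 a chain of 2 loops end to end. The other 8 were triangles, in which all 3 sites were joined.

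Over all networks there were 13 triangles. Seen from pairs of loops, another loop joined the outer sites in 13 of 91 opposite-side pairs (14.3%, 8.54 to 22.9%) and in 26 of 229 same-side pairs (11.4%, 7.87 to 16.1%). With anchors up to 20 kb apart merged, the shares were 13% of 185 (8.88 to 18.6%) and 21.1% of 227 (16.3 to 26.9%). Each triangle is counted among the opposite-side pairs from its middle site and among the same-side pairs from each outer site. The 2 shares therefore rest on the same triangles, and their order depends on how many pairs of each kind there are. They do not compare closure between the 2 kinds. The outer loop of a triangle spanned 430 kb at the median (210 to 1020 kb). It had a median of 59 contacts (30 to 104) and an enrichment of 3.17 (2.26 to 4.07), while the left and right inner loops had medians of 84 and 71 contacts and 2.60-fold and 2.71-fold. These medians mix pixel sizes, and in 6 triangles all 3 loops lay in 10 kb pixels. Among those 6 the outer loop was the most enriched in 5 and had the fewest contacts in 5. A start and a right domain end lay within 20 kb of the middle site in 10 of 13. Domains spanned both inner loops in 8 triangles, the outer loop in 4 and all 3 loops in 3.

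A triangle with domains in all 3 positions lay at chr1:23300001-23310000, chr1:23420001-23430000 and chr1:23510001-23520000. Its outer loop of 210 kb had 95 contacts (2.44-fold), and its inner loops had 126 (2.18-fold) and, in a 5 kb pixel, 68 (2.80-fold). On chromosome 15 the outer loop from chr15:83910001-83920000 to chr15:84220001-84235000 lay in a 5 kb pixel, with 30 contacts against 7.37 expected (4.07-fold, 2.75 to 5.81). The inner loops through chr15:84100001-84110000 lay in 10 kb pixels, with 132 contacts (3.17-fold) and 152 (2.71-fold). Domains there spanned only the inner loops.

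Chains of loops end to end were short. Of the 211 networks, 66 held a chain of 2 or more loops. The longest chain had 4 loops in 1 network and 3 in 6. The chain of 4 lay on chromosome 7 in the network with the most sites (6 sites, 5 loops, chr7:31010001-32530000). Its loops of 150, 600, 460 and 270 kb had 116, 65, 92 and 84 contacts at 2.62-fold, 3.35-fold, 2.99-fold and 2.74-fold. Domains of 145, 610 and 445 kb filled the first 3, and no domain was listed in the last. A further loop of 290 kb joined the third site of the chain to a site inside the 600 kb loop, with 85 contacts at 3.09-fold. The next chain by length, on chromosome 5 (chr5:58180001-59100000), had loops of 290, 190 and 410 kb with 66, 101 and 96 contacts. Its last 2 loops formed a triangle with an outer loop of 610 kb and 56 contacts (3.26-fold). The third, on chromosome 2 (chr2:46230001-47120000), ran through loops of 450, 180 and 240 kb with 94, 108 and 104 contacts, each spanned by a domain, and had no outer loop.

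The other 3 networks drawn, each of 5 sites, differed in shape. On chromosome 7 (chr7:25290001-25900000) a triangle of 125, 170 and 300 kb loops, with 43, 39 and 104 contacts, the first 2 in 5 kb pixels, matched a 330 kb domain holding smaller ones of 125 and 160 kb. Its middle site also joined chr7:25880001-25900000, 460 kb away, with 52 contacts at 3.56-fold, across a 280 kb domain that had a corner loop of its own (98 contacts, 2.77-fold). On chromosome 4 (chr4:88600001-89440000) 3 loops formed a chain and another of 180 kb was nested in its middle loop. On chromosome X (chrX:73070001-73570000) a loop of 280 kb (116 contacts, 3.10-fold) spanned 2 shorter loops of 150 and 100 kb (58 contacts in a 5 kb pixel and 108 in a 10 kb pixel) whose inner anchors lay 10 kb apart, followed by a loop of 210 kb downstream.

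**Figure D5:**
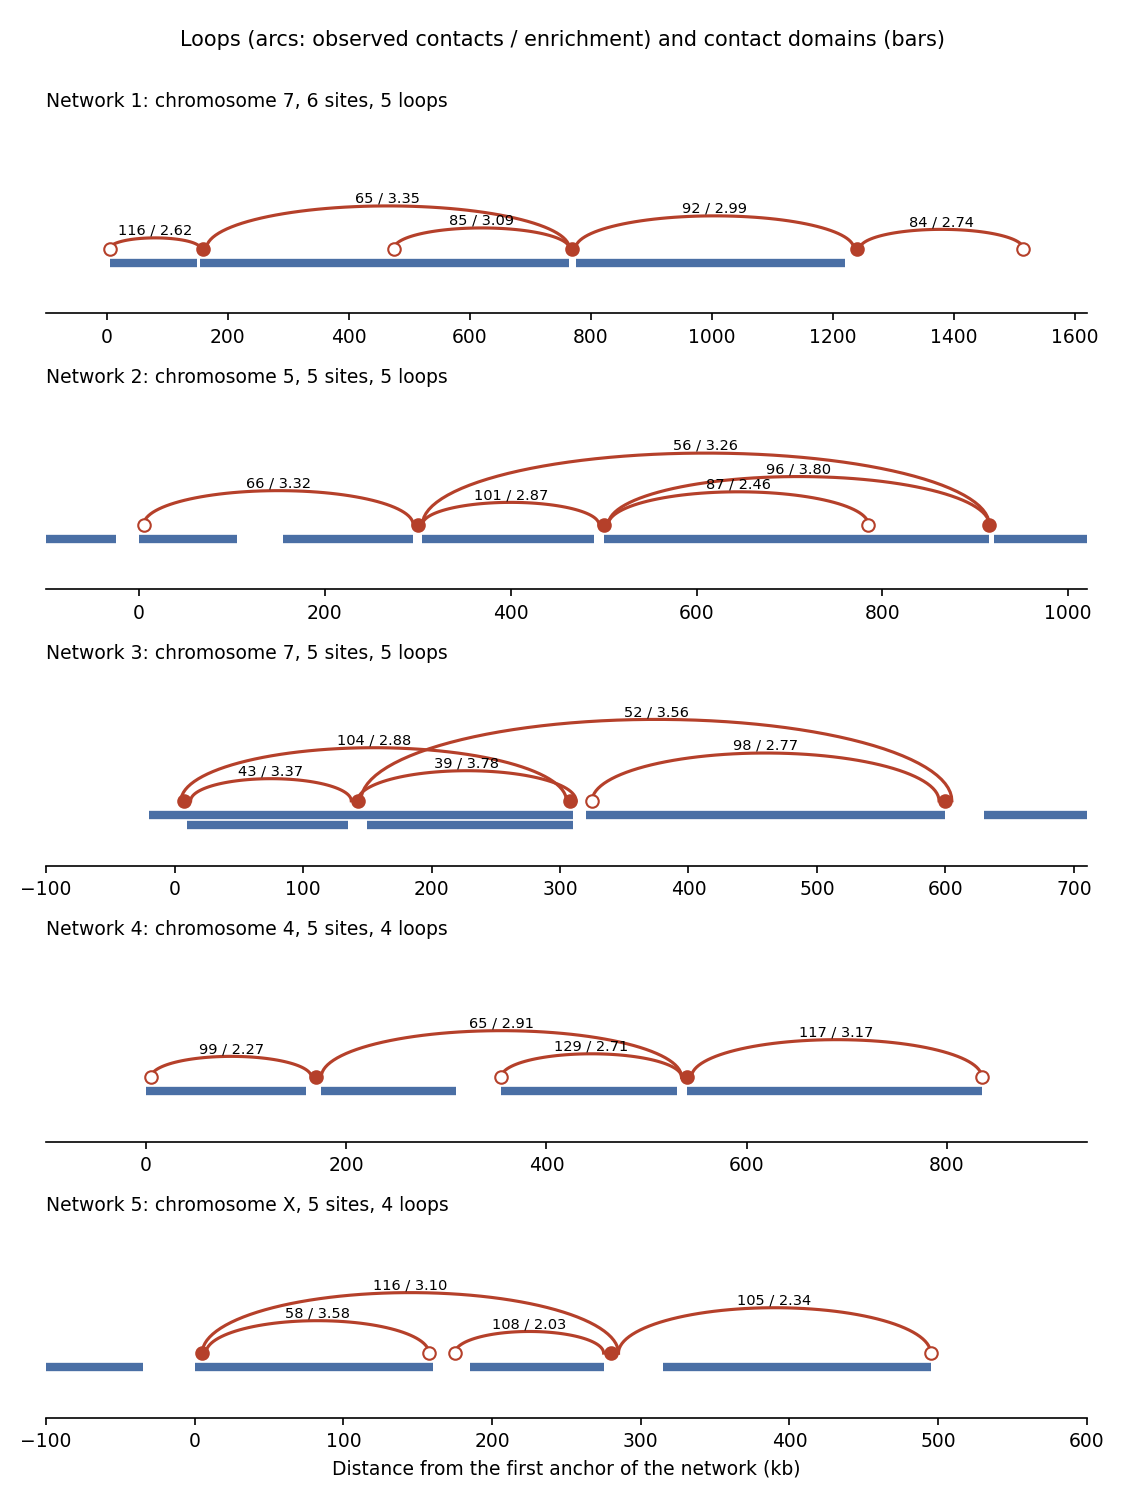
Of the networks of joined sites, the 1 of 6 sites and, of the 13 of 5 sites, the 4 with most loops and then most summed contacts, with distance from the first anchor in kb on the horizontal axis. Arcs are loops, labelled with observed contacts and donut enrichment and drawn with heights proportional to their distance, filled circles are sites used by 2 or 3 loops, open circles sites used by 1, and bars are contact domains, cut at 100 kb beyond the network. Network 1 shows the chain of 4 loops, and networks 2 and 3 each hold a triangle.

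Nesting lay mostly at shared sites, which follows from the choice of sites. Of 242 loops that lay within another, 218 shared a site with a loop that held them. Loops with a shared site lay within another in 220 of 495 cases (44.4%) and held another in 193 (39.0%), while loops without one did so in 22 (2.35%) and 17 (1.81%) of 937. Nesting reached 3 levels for 13 loops and never more. In the deepest nest by span, a loop from chr9:86500001-86510000 to chr9:88450001-88460000 (1950 kb, 21 contacts, 11-fold) held loops of 1210 kb (41 contacts, 3.10-fold) and 860 kb (57 contacts, 2.70-fold) that shared the site chr9:87010001-87020000. In the second, 2 loops of 1360 and 1310 kb ended at chr5:1590001-1610000 with 21 and 16 contacts on donut expectations of only 2.15 and 1.81, and held another of 85 kb. The third was the fan at chr10:22280001-22300000 described above.

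Shared sites were spread over the compartment scores much like other anchor sites. They lay in 1 Mb bins of positive score in 173 of 274 cases (63.1%, 57.3 to 68.6%), and single-loop sites in 1472 of 2292 (64.2%, 62.2 to 66.2%), with 64.1% of all sites and 48.9% of all signed bins. By rank of the score within its chromosome, where 100% is the highest, shared sites had a median of 61.3% (quartiles 41.4 and 78.0%) and single-loop sites 62.1% (41.1 and 80.5%). Upstream only, downstream only and both-sided sites were in positive bins in 67.3% (57.6 to 75.8%), 63.7% (54.1 to 72.4%) and 56.8% (45.4 to 67.4%) of cases, with intervals that overlap. What a positive score stands for was not given in the sources used here. On chromosomes 5, 11, 13, 14 and 22 a few bins carry most of the score, and on chromosome 4 the sign follows the arms. Without these 6 the shares were 62.7% of 212 shared sites (56.1 to 69.0%) and 64.3% of 1809 single-loop sites (62.1 to 66.5%). On chromosome X none of the 7 shared sites lay in a bin of positive score, against 11 of 53 single-loop sites (20.8%, 12 to 33.5%) and 29 of all 151 bins (19.2%). Their median rank was 58.3%.

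Most loops at shared sites joined bins of 1 sign. Both sites had 1 sign in 452 of 495 loops (91.3%, 88.5 to 93.5%) with a shared site and in 878 of 936 (93.8%, 92.1 to 95.2%) without. Most of these loops lay within 1 bin. Among those whose sites fell in different bins, the shares were 144 of 187 (77.0%, 70.5 to 82.5%) and 233 of 291 (80.1%, 75.1 to 84.3%).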

How the data were processed

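In situ Hi-C of HEK293T cells was deposited as 3 tables of 1 group, with both replicates combined in a way that no label or header states. The submitters' processing notes name BWA 0.7.8, FastQC 0.11.7, Picard and the build hg19, without roles. The loop table is, by its file name, a merge of HiCCUPS calls in pixels of 5 and 10 kb. Per the file headers it gives the observed count of contacts per pixel and the contacts expected from 4 neighbourhoods. The FDR q-values in the authors' deposited table reach at most 0.0999. The deposited compartment table holds a score per 1 Mb bin, and the deposited domain table a caller score per domain, both by methods not given in the sources used here.

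Loops with anchor starts up to 2 Mb apart were kept. Overlapping or touching anchors were merged into sites, and distances to domain ends were measured from the site's edge. A site's compartment bin was that of its centre. Enrichment is the observed count over expectedDonut, with an exact Poisson interval that holds the expectation fixed, and shares have 95% Wilson intervals that treat sites as independent, although sites of 1 network share loops. No test was run, since there are no samples to test across. Depth beyond the contacts per pixel is unknown. Members, lists and the region-naming rule were chosen with earlier results of these data known. The rule named the 8 sites of most loops (ties by summed contacts), the 4 per side class with most contacts, the 5 networks of most sites (ties by loops, then summed contacts), the 3 longest chains, the 3 deepest nests and the 5 pairs of most unequal enrichment. The site builder was tested on simulated networks. Python 3.11.15, pandas 2.3.3, scipy 1.17.1 and networkx 3.6.1 were used. Alternatives to merging, length limit, FDR, pixel size, tolerance and compartment filter were tried.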

Additional observations from a re-analysis of the deposited data

Results flagged for a closer look

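Loops over 2 Mb were left out of the shared sites. With them, 3 sites were used by more than 3 loops, all of these over 2 Mb and all leading upstream. The anchor at chr9:130890001-130900000 had 9 loops of 37.3 to 38.7 Mb, with 14 to 36 contacts, enriched 108-fold to 359-fold over the donut and 3.60-fold to 6.39-fold over the highest of the 4 expectations. At chr1:234910001-234920000 there were 5 loops of 217 to 218 Mb with 17 to 269 contacts, 12-fold to 119-fold over the donut and 1.88-fold to 6.83-fold over the highest expectation. At chr17:62910001-62920000 there were 4 loops of 18.6 to 19.3 Mb with 32 to 85 contacts, 17.4-fold to 51.9-fold over the donut and 3.24-fold to 12.4-fold over the highest expectation.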

How the results depend on the processing

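No paired analysis was possible because the tables hold no column for either replicate, and for the same reason neither replicate could be left out. The number of shared sites stayed within 1.5 times 274, from 183 with an FDR of at most 0.01 in all 4 neighbourhoods to 356 with anchors up to 20 kb apart merged. The share with partners on both sides (27.0%) moved to 38.7% and 43.0% with anchors up to 10 and 20 kb apart merged and to 37.5% with centroids, so it depends on how near 2 anchors must be to count as 1 site. Wider merging also raised the share of same-side pairs joined at their outer sites to 21.1%. A domain end lay within 10 kb of 86.1% of shared and 68.5% of single-loop sites, within 50 kb of 93.8% and 83.3%, and, for domains above the median caller score, within 20 kb of 76.3% and 56.7%. Median enrichment over the donut (2.74 for loops at shared sites and 2.64 for other loops) became 2.18 and 2.14 when the highest of the 4 expectations took the donut's place. Over the donut it was 2.66 and 2.56 with 10 kb pixels only and 2.81 and 2.71 with the stricter FDR. By distance class the donut values were 2.34, 2.55, 2.90 and 3.23 for loops at shared sites (up to 100, 100 to 200, 400 to 800 and above 800 kb) and 2.31, 2.46, 2.71, 2.91 and 3.31 for other loops over all 5 classes. In bins whose absolute score was above their chromosome's median, 73.3% of shared and 69.2% of single-loop sites were positive. Chosen after seeing the data, the loop centroid and the 20 kb merge raised the share of both-sided sites with the downstream anchor farther downstream to 95.9% and 91.5%. Of 15 named sites, 14 kept 2 or more loops with the stricter FDR and 14 with 10 kb pixels only, the exception in both being chr10:97120001-97130000. Within a site, the Poisson intervals of the 2 enrichments were apart in 12 of 229 same-side pairs and 3 of 91 opposite-side pairs. Overlap of 2 intervals does not show that the enrichments are equal.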

Other observations

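A shared site at chr17:43650001-43665000 had downstream loops of 920 kb (50 contacts in a 10 kb pixel, 7.41-fold) and 695 kb (24 contacts in a 5 kb pixel, 6.64-fold). The lowest partner of the chromosome 17 anchor with 4 loops over 2 Mb starts at the same position, 43650001. Likewise, the lowest partner of the chromosome 9 anchor with 9 such loops starts at 92210001, where the shared site chr9:92210001-92220000 also starts. At chr10:30870001-30885000 the farther of 2 upstream loops, 1210 kb long, was enriched 9.62-fold on 19 contacts in a 5 kb pixel. The nearer, 190 kb long, was enriched 2.15-fold on 131 contacts in a 10 kb pixel. The pair was left out of those named by ratio because 19 contacts is below the minimum of 20.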
